A study of Mus musculus with 6 samples.

Results

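Muscle fatty acid uptake and oxidation were followed through 10 listed genes in C2C12, a line of mouse myoblasts that form multinucleated myotubes in culture. The genes were listed by name from the pathway, with earlier results of these data known, and 9 of the 10 stand among the 12625 gene symbols of the count table. The tenth, Cpt1b, the muscle form of carnitine palmitoyltransferase 1, is not analysed here. The RANKL group held 3 libraries of myotubes that had differentiated for 5 days and were then exposed for 72 h to recombinant murine RANKL (TNFSF11) at 100 ng per ml. The vehicle group held 3 libraries of C2C12 myotubes labelled as given vehicle. No differentiation or exposure time is given for the vehicle group in the labels. The labels name no genetic change in either group, and all RNA was isolated and sequenced at one time. Nothing in the labels says that the 3 libraries of a group came from separate cultures, so the p-values measure only the spread between these libraries, which may be technical. The comparison asks how RANKL, a ligand known for driving osteoclast formation, changes RNA levels in cultured muscle fibres.

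Muscle burns fatty acids in a chain of steps. The cytosolic carrier FABP3 binds incoming fatty acids, acyl-CoA synthetases activate them, and the carnitine shuttle, with CPT1 on the outer and CPT2 on the inner mitochondrial membrane, brings them into the matrix. Each turn of beta-oxidation begins with an acyl-CoA dehydrogenase chosen by chain length (ACADVL, ACADL or ACADM), and for long chains the trifunctional protein, built of HADHA and HADHB, carries out the remaining steps. PDK4 inhibits pyruvate dehydrogenase and so spares glucose when fat is used, and PGC-1alpha, encoded by Ppargc1a, is a coactivator of the nuclear receptors (PPARs and ERRs) that switch on many of these genes.

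None of the 9 genes passed the test for a change under RANKL. edgeR's quasi-likelihood test, at a Benjamini-Hochberg adjusted p under 0.05 over all genes, called 0 of the 9 genes higher and 0 lower, while 12.9% of all 12625 genes were called (5.35% higher and 7.50% lower). Of the calls over all genes 41.7% were higher, and 63.1% were with total-count scaling. The share of all genes called was 7.21% without vehicle replicate 2, 7.82% without vehicle replicate 1 and 8.43% without RANKL replicate 2. The count was also 0 by DESeq2, by limma-voom and by limma-trend, and 1 gene, Fabp3, was called lower once a trend of fold change on gene length was removed. An unadjusted p under 0.05 was seen for 2 of the 9, Fabp3 and Hadhb, and for 27.2% of all genes. The log2 fold changes, RANKL over vehicle, ran from -0.12 to 0.09, and 5 of the 9 were above 0. Their median was 0.0051, beside 0.0047 over all genes, and their median size regardless of sign was 0.04, beside 0.08 over all genes. Their median standard error was also smaller, at 0.0403 beside 0.0537 over all genes, so these sizes are not compared at equal precision. For each of the 9 genes the RANKL and vehicle libraries overlapped, whereas in 31.5% of all genes they did not. The size of the change in Fabp3, which moved most, was reached or passed by 32.5% of all genes.

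**Figure D1:**
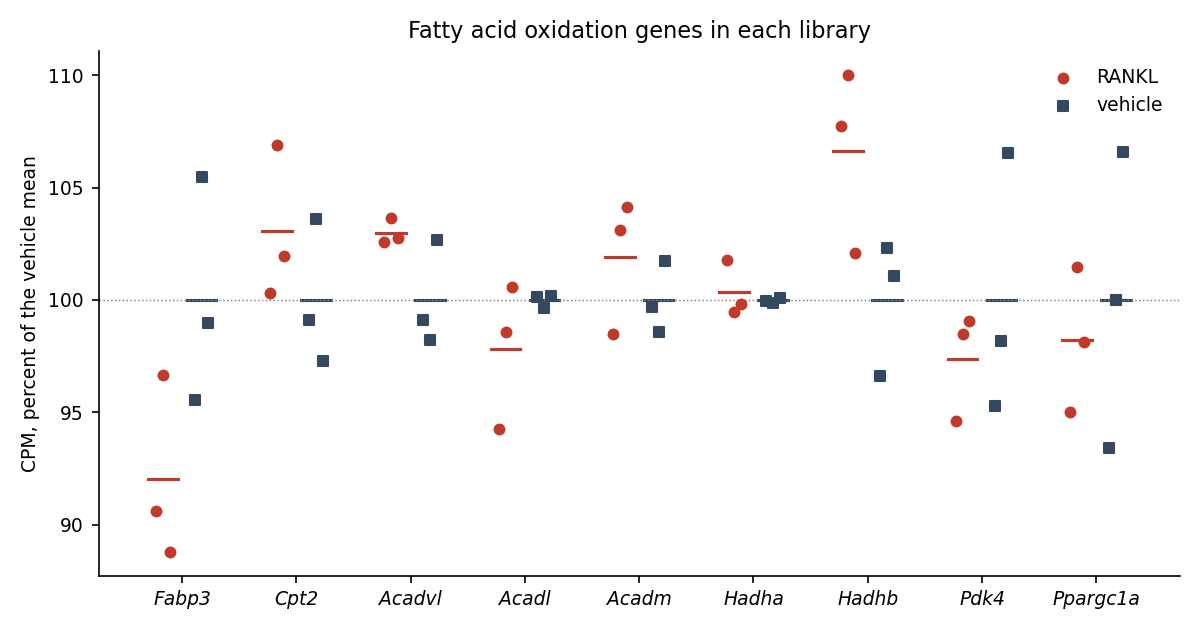
Scaled counts per 1000000 (CPM) of each gene in each library as a percentage of that gene's vehicle mean; red circles are the 3 RANKL libraries, dark squares the 3 vehicle libraries, short lines the group means. The points lie between 88.8% (Fabp3, RANKL replicate 3) and 110% (Hadhb, RANKL replicate 2), and the groups overlap for every gene.

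The libraries held 32732604 to 37445933 counts under RANKL and 33566746 to 39677999 under vehicle. CPM values were scaled by edgeR's TMM factors, which lay between 0.9796 and 1.013, and a count of 3 corresponded to between 0.0756 and 0.0917 CPM. All 10 myotube markers were in the table, and edgeR called 5 of them lower under RANKL (Acta1, Actn2, Myh3, Myh8 and Ryr1), with a summed level of 13862 to 14380 RPKM (counts per kilobase of gene, scaled to 1000000 counts per library) under RANKL and 14485 to 14872 under vehicle. The most abundant of them, Mylpf, a myosin light chain, had a log2 fold change of 0.03 ± 0.04 (adjusted p = 0.693). Tnnt3 (0.05), Ckm (0.04) and Myog (0.01) were also above 0 and Des (-0.07) below, none past the threshold. Within the sum, Acta1 stood at 3389 RPKM under RANKL and 3865 under vehicle, and Mylpf at 5462 under RANKL and 5364 under vehicle. Of 8 markers of undifferentiated or cycling myoblasts, 5 were higher (Ccna2, Ccnb1, Cdk1, Mki67 and Top2a), with a summed level of 62.9 to 71.5 RPKM under RANKL and 53.2 to 58.5 under vehicle. Pcna, the most abundant of these, did not pass (log2 fold change 0.11 ± 0.06, adjusted p = 0.231), but without vehicle replicate 3 it stood at 0.19 (adjusted p = 0.0385) and 6 of the 8 were called. Pax7 (-0.31 ± 0.24, adjusted p = 0.444) and Myf5 (0.14 ± 0.07, adjusted p = 0.2285), markers of the undifferentiated state, did not pass either. Pax7 was low, at 0.152 RPKM under RANKL and 0.184 under vehicle. Of 7 fibroblast markers 5 were measured and 1, Col3a1, was higher, with summed levels of 997 to 1106 RPKM under RANKL and 908 to 952 under vehicle. That call ended without vehicle replicate 2 (adjusted p = 0.0653), while 2 fibroblast markers were called without RANKL replicate 1, RANKL replicate 3 or vehicle replicate 1 and with the length trend removed, and 3 with total-count scaling. The 7 adipocyte markers, Adipoq and Plin1 among them, are not analysed here. Of 10 macrophage and osteoclast markers 3 were measured, at a sum of 3.23 to 4.03 RPKM under RANKL and 2.66 to 3.08 under vehicle, and edgeR and the other 3 tools called 0 of them, though the unadjusted p of 1, Cd14, was under 0.05. The part of these marker levels in the values below was not tested. In bulk RNA, a smaller share of myotubes and less of an RNA in each myotube cannot be told apart.

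The genes of the list spanned a wide range of levels, and their order was nearly the same in both groups. Levels per length are given as RPKM, read from the log2 values that the authors deposited. Acadl, the long-chain acyl-CoA dehydrogenase, was the most abundant, at 128 ± 4.24 RPKM under RANKL and 131 ± 0.406 RPKM under vehicle (SD, n = 3 each). Ppargc1a was the least abundant, at 0.604 ± 0.0197 RPKM under RANKL and 0.615 ± 0.0399 RPKM under vehicle, so that Acadl stood 212-fold above it under RANKL and 213-fold under vehicle. Behind Acadl, the RANKL libraries had Hadha at 66.6 ± 0.829 and Fabp3 at 65.4 ± 2.92 RPKM, and these neighbours overlapped. In the vehicle libraries Fabp3, at 71.1 ± 3.58 RPKM, stood above Hadha, at 66.4 ± 0.0646 RPKM, with no overlap between the libraries of these genes. All other neighbours kept their order and were separate in both groups: Acadvl, Acadm, Hadhb, Cpt2, Pdk4 and Ppargc1a from high to low. The order between genes rests on the lengths behind the deposited values, from an annotation that is not named. For Hadhb that length was 2.07 kb, while all its exons in GENCODE M21 together cover 6595 bases. The 9 genes together came to 402 to 415 RPKM per library under RANKL and 407 to 415 RPKM under vehicle, of which Acadl made up 31.4% ± 0.770 under RANKL and 31.8% ± 0.401 under vehicle.

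**Figure D2:**
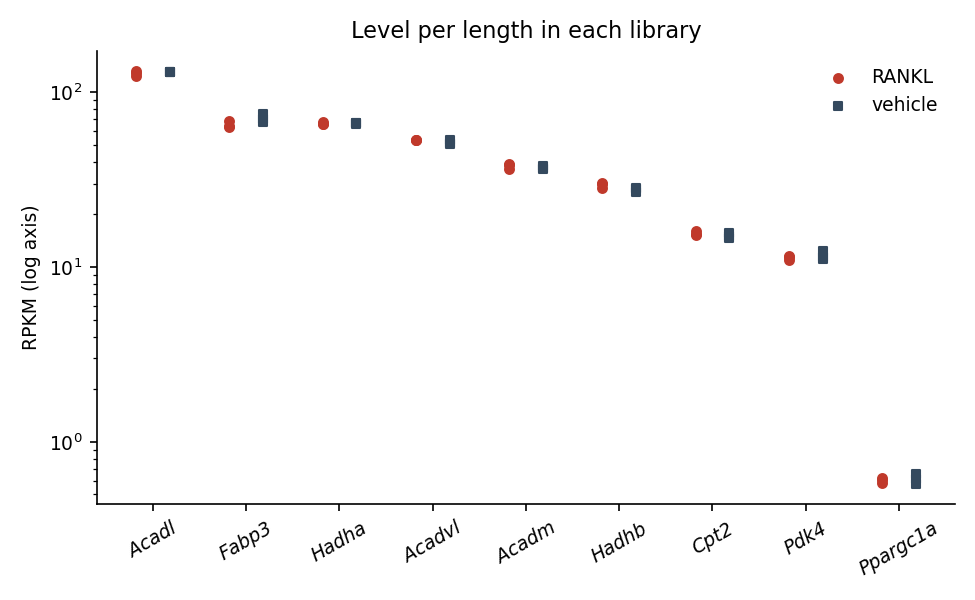
Level per length of the 9 genes in each library (RPKM, log axis), ordered by the vehicle mean; red circles are RANKL and dark squares vehicle libraries, 3 each. Acadl lies between 124 and 132 RPKM and Ppargc1a between 0.575 and 0.655 RPKM, and Fabp3 and Hadha exchange places between them.

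Fabp3 encodes the heart and muscle fatty acid binding protein, which carries fatty acids through the cytosol. The gene lies on chromosome 4 from 130308595 to 130315463 (mm10). Fabp3 had 41.1, 43.9 and 40.3 CPM in the RANKL libraries, against 43.4, 47.9 and 45.0 CPM in the vehicle libraries. RANKL replicates 1 and 3 were below every vehicle library, and RANKL replicate 2 lay inside the vehicle range. Its log2 fold change was -0.12 ± 0.05 (SE), a 95% interval of the change from -14.2% to -1.14%, and edgeR's test gave an adjusted p of 0.120. The adjusted p was 0.0111, and the log2 fold change -0.21, once the trend of fold change on gene length was removed, and over the 15 alternatives the adjusted p ran from 0.0111 to 0.389. The length behind the deposited values was 0.639 kb for Fabp3, the shortest of the 9 genes, beside a median of 2.94 kb over all genes. Exons of Fabp3 overlap those of Gm10570 and Zcchc17 on the opposite strand, and the sources used here do not say whether counting used strand, so its reads and theirs cannot be told apart.

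Cpt2 encodes the inner membrane enzyme that turns acylcarnitine back into acyl-CoA, on chromosome 4 from 107903981 to 107923610. It had 35.7, 38.0 and 36.2 CPM in the RANKL libraries, against 35.2, 36.8 and 34.6 CPM in the vehicle libraries. The groups overlapped, with the highest value in RANKL replicate 2 and the lowest in vehicle replicate 3. The log2 fold change was 0.04 ± 0.05 (adjusted p = 0.585), and the 95% interval of the change ran from -3.59% to 10.2%. Cpt1a, the carnitine palmitoyltransferase 1 form known from liver, was measured at 12.02 RPKM under RANKL and 11.78 RPKM under vehicle, with a log2 fold change of 0.03 ± 0.04 (adjusted p = 0.685). Slc25a20, the carrier that exchanges acylcarnitine for carnitine, stood at 16.02 RPKM under RANKL and 16.45 RPKM under vehicle, and its log2 fold change was -0.04 ± 0.05 (adjusted p = 0.637). For each of Cpt1a, Slc25a20 and Cpt2 the fold change was smaller than its standard error.

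The 3 acyl-CoA dehydrogenases of the list divide fatty acids by chain length. Acadvl, for very long chains, lies on chromosome 11 from 70010183 to 70015411 and had 116.0, 117.2 and 116.2 CPM in the RANKL libraries, against 112.1, 111.1 and 116.1 CPM in the vehicle libraries. Vehicle replicate 3, at 116.1 CPM, reached into the narrow RANKL range, while the other vehicle libraries were below it. Its log2 fold change was 0.04 ± 0.03 (adjusted p = 0.433), an interval from -1.81% to 7.98%. Exons of Acadvl overlap those of Dvl2 on the opposite strand, which makes its counts uncertain to that extent.

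Acadl, for long chains, lies on chromosome 1 from 66830839 to 66863277. It had 240.7, 251.8 and 256.9 CPM in the RANKL libraries, against 255.7, 254.5 and 255.9 CPM in the vehicle libraries. The vehicle libraries were nearly identical, with a coefficient of variation of 0.310%. That is less than counting error alone would give at their 8466 to 9938 counts. The RANKL libraries, at 3.31%, lay on both sides of the vehicle libraries. RANKL replicate 1 was the lowest library, and without it the log2 fold change was -0.0032, against -0.03 ± 0.03 with all libraries (adjusted p = 0.575, interval from -6.76% to 2.60%). Acadm, for medium chains, lies on chromosome 3 from 153922357 to 153944632. It had 75.4, 78.9 and 79.7 CPM in the RANKL libraries, against 76.3, 75.5 and 77.9 CPM in the vehicle libraries. RANKL replicate 1 was again the lowest and the other RANKL libraries the highest. The log2 fold change of Acadm was 0.03 ± 0.04 (adjusted p = 0.685, interval from -3.31% to 7.30%), and it was -0.0068 with the trend on gene length removed.

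Hadha and Hadhb encode the alpha and beta subunits of the mitochondrial trifunctional protein, which hydrates, oxidizes and cleaves the long acyl chain. They stand head to head on chromosome 5, with Hadha on the minus strand from 30118304 to 30155162 and Hadhb on the plus strand from 30155248 to 30184593. The 85 bases between them in GENCODE M21, chr5:30155163-30155247 on mm10, are printed because the subunits of one enzyme are transcribed away from them. The sequence is RefSeq's promoter table for GRCm38.p6, plus strand, and capitals mark the 68 bases that lie in the promoter windows of both genes, each window running from 250 bases before to 50 after the start that RefSeq gives.
Between Hadha and Hadhb: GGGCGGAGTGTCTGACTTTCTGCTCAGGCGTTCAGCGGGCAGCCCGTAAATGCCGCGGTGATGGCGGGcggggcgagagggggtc
Of these bases 69.4% are G or C, and the stretch holds 9 CpG dinucleotides. The starts that RefSeq gives for Hadha and Hadhb lie farther apart, with 272 bases between them.

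Hadha had 259.0, 253.1 and 254.0 CPM in the RANKL libraries, against 254.4, 254.2 and 254.7 CPM in the vehicle libraries. The vehicle libraries had a coefficient of variation of 0.0973%, less than counting error alone would give at their 8459 to 9890 counts. RANKL replicate 1 was above the vehicle libraries while the other RANKL libraries were just below. The log2 fold change of Hadha was 0.0051 ± 0.03 (adjusted p = 0.935), and its interval, from -3.90% to 4.80%, was the narrowest of the 9 genes. Hadhb had 61.8, 63.1 and 58.6 CPM in the RANKL libraries, against 55.4, 58.7 and 58.0 CPM in the vehicle libraries. RANKL replicates 1 and 2 were above every vehicle library, and RANKL replicate 3 lay just under vehicle replicate 2. The log2 fold change of Hadhb was 0.09 ± 0.04 (adjusted p = 0.150), the highest of the 9 genes, with an interval from 0.484% to 13.2%. Over the 15 alternatives its adjusted p ran from 0.0634 to 0.397.

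Per length, Hadha stood above Hadhb by a ratio of 2.27, 2.17 and 2.34 in the RANKL libraries, against 2.48, 2.34 and 2.38 in the vehicle libraries. The ratio averaged 2.26 ± 0.0883 under RANKL and 2.40 ± 0.0727 under vehicle (SD, n = 3 each), and RANKL replicate 3 and vehicle replicate 2 met at 2.34. No test was run on this ratio, and its size rests on the lengths behind the deposited values, 3.83 kb for Hadha and 2.07 kb for Hadhb. Exons of Hadha overlap those of Garem2 on the opposite strand, so its counts are uncertain to that extent.

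**Figure D3:**
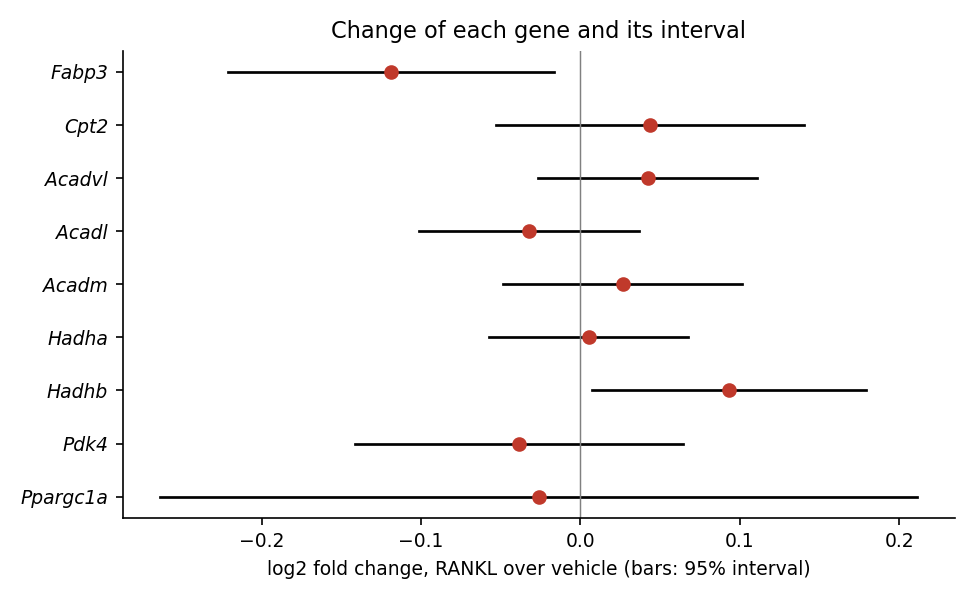
Log2 fold change of each gene, RANKL over vehicle (points), with its 95% interval from edgeR's quasi-likelihood test (bars), ordered by role in the pathway. Intervals are narrowest for Hadha and widest for Ppargc1a, and those of Fabp3 and Hadhb leave out 0 before adjustment for the number of genes tested.

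Pdk4, the kinase that switches pyruvate dehydrogenase off, lies on chromosome 6 from 5483351 to 5496309. It had 37.9, 39.4 and 39.6 CPM in the RANKL libraries, against 38.1, 39.3 and 42.6 CPM in the vehicle libraries. The groups covered much the same range, with vehicle replicate 3 the highest. Its log2 fold change was -0.04 ± 0.05 (adjusted p = 0.661, interval from -9.34% to 4.55%), and it was 0.0097 without vehicle replicate 3. Ppargc1a lies on chromosome 5 from 51454250 to 51567726. It was read by only 141, 136 and 128 counts in the RANKL libraries, against 143, 131 and 155 counts in the vehicle libraries. As scaled values these were 3.741, 3.996 and 3.864 CPM in the RANKL libraries, against 3.679, 3.937 and 4.197 CPM in the vehicle libraries, with the RANKL libraries inside the vehicle range. Its log2 fold change was -0.03 ± 0.11 (adjusted p = 0.909), and its interval, from -16.7% to 15.8%, was the widest of the list. Counts per gene do not separate the isoforms of Ppargc1a, of which GENCODE M21 lists 5 transcripts.

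**Figure D4:**
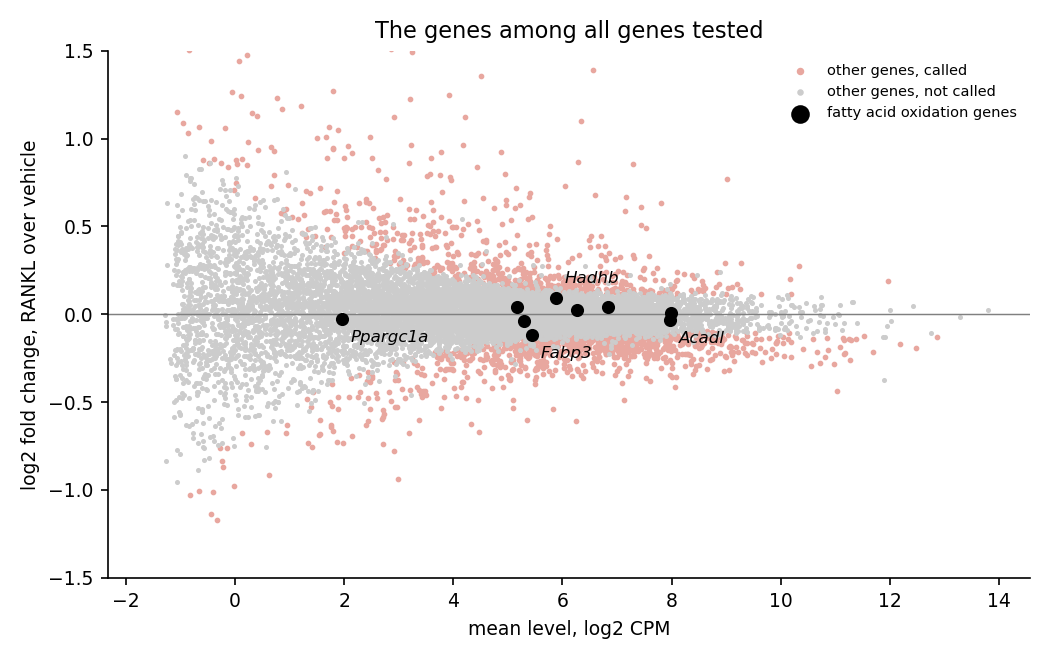
Log2 fold change, RANKL over vehicle, against mean level (log2 CPM) for all 12625 genes; black points are the 9 fatty acid oxidation genes, pale red points other genes called by edgeR and grey points other genes not called. The black points lie close to 0 within the grey band, and 30 genes fall outside the vertical limits of 1.5.

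RefSeq's promoter table held a window of 300 bases for each of the 9 genes, and these were searched for 3 motifs on both strands. The ERR element TCAAGGTCA was in 0 of the 9 windows and in 0.423% of the 32851 promoter windows of the table. The hexamer AGGTCA, the half-site of PPARs and related receptors, which also lies inside that element, was in the windows of Acadm and Acadvl, 2 of the 9, and in 16.3% of all windows. The kB motif GGACTTTCC was in 0 of the 9 and in 0.344% of all windows. A count of 0 says only that the letters are not in the windows searched.

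The wider pathway was followed in 8 further lists, which held 100 genes, 91 of them measured. edgeR called 4 of the 91 higher and 4 lower, 8.79% in all beside 12.9% of all genes, and their median log2 fold change was 0.01. DESeq2 called 2 higher. Without RANKL replicate 3 there were 8 higher, and without RANKL replicate 1 there were 8 lower.

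Among 12 measured genes of fatty acid uptake, binding and activation, edgeR called 1 higher and 0 lower, with a list median of -0.01. DESeq2 and limma-voom each called 1 lower, and in edgeR 4 had an unadjusted p under 0.05. The higher gene was Acsl5, an acyl-CoA synthetase, with 43.4, 43.2 and 42.5 CPM in the RANKL libraries, against 38.0, 36.7 and 36.5 CPM in the vehicle libraries. All RANKL libraries were above all vehicle libraries, and the log2 fold change was 0.21 ± 0.04 (adjusted p = 0.00302), a call that held in all 15 alternatives. Without RANKL replicate 3 there were 2 higher genes in this list, and 1 lower without RANKL replicate 1 or 3.

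Of the 8 genes of the carnitine shuttle and its malonyl-CoA brake, edgeR and the other 3 tools called 0, and 0 had an unadjusted p under 0.05. The smallest p was that of Acaca, an acetyl-CoA carboxylase, with a log2 fold change of -0.10 ± 0.05 (adjusted p = 0.195). It passed without RANKL replicate 3, at -0.16 (adjusted p = 0.0273), and stood at -0.05 (adjusted p = 0.521) without RANKL replicate 1. Of 13 mitochondrial beta-oxidation enzymes and their electron carriers, edgeR and the other 3 tools called 0 while 2 had an unadjusted p under 0.05, and the list's log2 fold changes ran from -0.05 to 0.10. Its top gene was Etfa, a subunit of the flavoprotein that takes electrons from the acyl-CoA dehydrogenases, with 67.2, 67.5 and 64.7 CPM in the RANKL libraries, against 60.3, 62.6 and 62.6 CPM in the vehicle libraries. The groups of Etfa did not overlap, but its log2 fold change of 0.10 ± 0.04 did not pass (adjusted p = 0.0729); it passed without RANKL replicate 3 (0.0490) and with total-count scaling (0.0294).

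Of 8 measured peroxisomal genes 1 was called higher, Scp2, whose long form is a peroxisomal thiolase, at a log2 fold change of 0.11 ± 0.03 (adjusted p = 0.0496). That call ended without RANKL replicate 2 or 3 and without any 1 of the vehicle replicates, and also with DESeq2, limma-trend, the size factors of DESeq2 within edgeR and the length trend removed, where 1 other gene of the list was called lower. In the list of lipid droplet and lipolysis genes, edgeR called 1 of 9 lower and 0 higher, 11.1% beside 12.9% of all genes. The list median was -0.12, and 4 of the 9 had an unadjusted p under 0.05 (27.2% of all genes did). Each of these 4 had a log2 fold change below 0. The called gene was G0s2, an inhibitor of adipose triglyceride lipase. It had 10.77, 12.52 and 12.59 CPM in the RANKL libraries, against 15.03, 17.67 and 17.01 CPM in the vehicle libraries. The groups did not overlap, the log2 fold change was -0.47 ± 0.08 (adjusted p = 0.00156), and the call held in all 15 alternatives. Without RANKL replicate 1 there were 3 lower genes in this list, and 2 without vehicle replicate 3 or with the length trend removed. Without RANKL replicate 3, 1 gene of the list was called higher.

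Of 13 genes of pyruvate dehydrogenase, its kinases and phosphatases and pyruvate import, edgeR and the other 3 tools called 0, while 4 had an unadjusted p under 0.05. Pdk1, a kinase of the same family as Pdk4, came first by p, at 0.13 ± 0.05 on the log2 scale (adjusted p = 0.0949). Without RANKL replicate 3 it passed (adjusted p = 0.0320), and without vehicle replicate 3 it stood at 0.08 (adjusted p = 0.322). Pdk1 also passed with total-count scaling, at 0.16 (adjusted p = 0.0387), as the 1 gene of this list called higher in that setting. Without RANKL replicate 1 or vehicle replicate 3, 1 gene was called lower.

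Among 21 measured PPAR, ERR and coactivator regulators, edgeR called 2 lower and 0 higher, 9.52% beside 12.9% of all genes. The list median was -0.05, and 6 of the 21 had an unadjusted p under 0.05 (27.2% of all genes did). Foxo1, a transcription factor that in muscle is known to induce Pdk4, had 49.7, 51.5 and 49.8 CPM in the RANKL libraries, against 58.7, 62.5 and 56.6 CPM in the vehicle libraries. Its groups did not overlap, and the log2 fold change was -0.23 ± 0.04 (adjusted p = 0.00243), called in all 15 alternatives. Prkaa2, a catalytic subunit of the energy sensor AMPK, stood at -0.18 ± 0.05 (adjusted p = 0.0321), a call that ended without RANKL replicate 2, vehicle replicate 1 or vehicle replicate 2, with total-count scaling, with limma-trend and with the length trend removed. The nuclear receptors Ppara, Ppard and Esrra did not pass the test: Ppara, at 0.209 RPKM under RANKL and 0.240 RPKM under vehicle, had a log2 fold change of -0.21 ± 0.19 (adjusted p = 0.525). Its value was -0.36 without vehicle replicate 1, -0.09 without RANKL replicate 1 and -0.11 without vehicle replicate 3, none of them past the threshold. Ppard stood at -0.10 ± 0.04 (adjusted p = 0.147) and Esrra, which encodes ERRalpha, at -0.10 ± 0.04 (adjusted p = 0.142), each with its 3 RANKL libraries below its 3 vehicle libraries. Over all genes, the groups did not overlap in 31.5%.

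Outside these lists, 7 measured genes listed as PPAR targets were followed. edgeR called 2 higher and 1 lower, 42.9% beside 12.9% of all genes. In this list, chosen with earlier results of these data known, 6 had an unadjusted p under 0.05, beside 27.2% of all genes. Angptl4, a secreted inhibitor of lipoprotein lipase, had 12.97, 14.63 and 11.29 CPM in the RANKL libraries, against 4.96, 5.98 and 5.74 CPM in the vehicle libraries. Every RANKL library was above every vehicle library, and Angptl4 rose 2.34-fold, which is 1.23 ± 0.10 on the log2 scale (adjusted p = 3.61e-06) and was called in all 15 alternatives. Txnip, a thioredoxin-binding protein that restrains glucose uptake, had 236, 158 and 135 CPM in the RANKL libraries, against 123, 110 and 101 CPM in the vehicle libraries. RANKL replicate 1 was far above the others, and without it the log2 fold change of Txnip was 0.40, against 0.67 ± 0.14 with all libraries (adjusted p = 0.00654), and DESeq2 did not call it (adjusted p = 0.0889). Ucp2, a mitochondrial carrier, fell, with 88.5, 95.2 and 96.9 CPM in the RANKL libraries, against 107, 109 and 108 CPM in the vehicle libraries (log2 fold change -0.21 ± 0.04, adjusted p = 0.00229, called in all 15 alternatives). No overlap was seen between the groups for Angptl4, Txnip or Ucp2, as in 31.5% of all genes. These genes were named because they were called, so this is not a contrast with the 9 fatty acid oxidation genes.

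**Figure D5:**
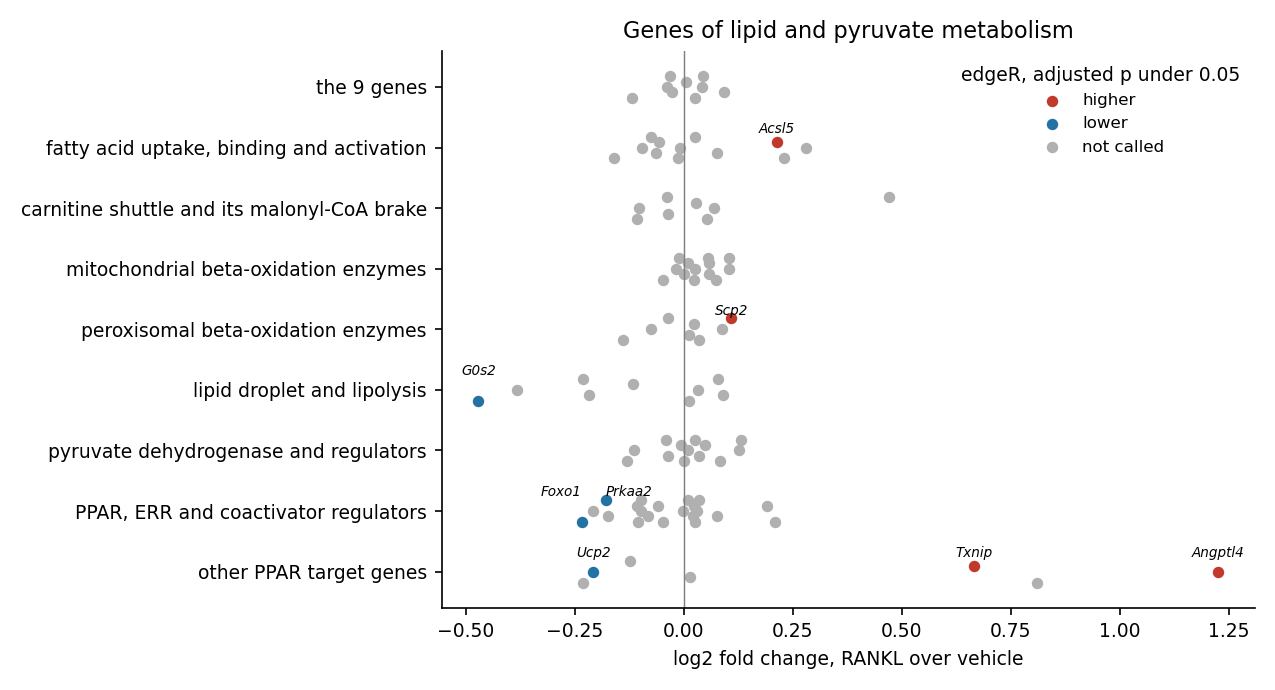
Log2 fold change, RANKL over vehicle, of each measured gene in the list of 9 and in the 8 further lists; red points were called higher and blue points lower by edgeR at an adjusted p under 0.05, grey points were not called. The 9 genes lie between -0.12 and 0.09, and Angptl4, at 1.23, lies farthest from 0.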

How the data were processed

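RNA was read as paired ends of 75 bases. The submitters' processing notes list STAR, FastQC and edgeR with build mm10 but give no version. The sources used here name neither the read counter nor the annotation. The authors deposited a table of raw counts per gene symbol, and 4708 of its lines hold no gene and no value. Its third-highest library had at least 0.504 CPM for every gene, so low genes had been removed before deposit. The second table the authors deposited holds log2 values, which match log2 RPKM of the raw counts within 0.0038 over 7881 genes with at least 500 counts in every library, by the values and not by a header.

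Groups came from the labels. Counts were tested in R 4.3.3 with edgeR 4.0.16: filterByExpr (0 genes removed), TMM factors, the quasi-likelihood F test, and p-values adjusted by Benjamini-Hochberg over 12625 genes, with 0.05 as threshold. The SE is the size of the log2 fold change over the square root of F, and 95% intervals come from the same test. The call rule was checked on simulated data, with planted changes larger than that of any member. The check therefore does not cover changes as small as those of the members. Nor does it cover the smaller called changes, such as those of Acsl5, Foxo1, Ucp2, Prkaa2 and Scp2. DESeq2 1.42.0 and limma 3.58.1 served as alternatives. The chi-square per gene between replicates of a group was 3.42 to 9.62, so no library was counted as a duplicate. Floors of 3 counts cover counting error only.

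Members and lists were chosen with earlier results of these data known. The genes named are all members, up to 3 called genes by smallest p from each list (or the gene with the smallest p), Ppara, Ppard, Esrra, Cpt1a and Slc25a20 whatever their values, and from each marker list the most abundant gene (Mylpf, Pcna, Cd14 and Col3a1). Other marker genes were named after their values were seen. Positions and exon overlaps are from GENCODE M21 on mm10.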

Additional observations from a re-analysis of the deposited data

How the results depend on the processing

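Over the 15 alternatives (6 that each left out 1 library and 9 others), the count of the 9 genes called stayed at 0 except with the trend on gene length removed, which called 1 lower, Fabp3. Log2 fold changes near 0 changed sign in a few settings: Acadm was -0.0068 with that trend removed, Ppargc1a 0.0043 with total-count scaling, and, leaving out 1 library each, Hadha ran from -0.0027 to 0.0143, Pdk4 from -0.0733 to 0.0097 and Ppargc1a from -0.0751 to 0.0233. The marker Mylpf (0.03) was -0.0536 with the length trend removed. Over all genes edgeR called 676 higher and 947 lower, 41.7% of calls higher; total-count scaling gave 1070 and 626, 63.1% higher, and leaving out 1 library gave 373 to 746 higher and 537 to 880 lower (the fewest without vehicle replicate 2). Of the other libraries, vehicle replicate 1 left 426 and 561 calls when removed, and RANKL replicate 2 left 596 lower. In the 8 further lists together, DESeq2 called 2 higher, against 4, and leaving out 1 library gave 3 to 8 higher and 3 to 8 lower. The cause of these shifts was not tested. The main test did not pair the libraries by replicate number. Same-numbered libraries had deviations correlated at only 0.0649, 0.0366 and 0.0177, though each library correlated best with its own number. Whether the numbers mark pairs was not tested. With the replicate number as a block edgeR called 730 higher and 1008 lower genes and 0 of the 9, Scp2 lost its call (adjusted p = 0.0578) and Pdk1 gained one (0.0361); 1 uptake gene and 2 lipid droplet genes were lower and 2 fibroblast markers higher. Depth limits Ppargc1a most: read by 128 to 155 counts a library, it had an interval from -16.7% to 15.8%.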
